A study of Mus musculus with 4 samples.

Results

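The OAS family was followed through 4 RNA-seq libraries of LPS-stimulated mouse splenic B cells, in which some of its genes were close to 0 in a single control sample. The family was taken as the 8 genes Oas1a, Oas1b, Oas1c, Oas1g, Oas2, Oas3, Oasl1 and Oasl2, out of 30041 genes listed by symbol in the deposited files. They were selected on their scores in control 2, where several were near 0 in these same files, so the gap is described here without a test. The genotypes were compared to ask what IκB-ζ, the nuclear protein encoded by Nfkbiz, does for gene expression in stimulated B cells. The 2 control samples were Nfkbiz fl/Δ and the 2 cKO samples were Nfkbiz fl/Δ Mb1 cre/+. A floxed and a deleted Nfkbiz allele were thus shared by all 4 samples, and only the cKO samples carried Cre, which is driven by the B cell gene Cd79a (mb-1). The strain was labelled C57BL/6 in all 4, the age of the mice was not given in the sources used here, and nothing stated whether a sample came from 1 mouse or from a pool. The spread between samples of a group may therefore be technical. B cells had been purified by depletion of other cells and cultured with LPS for 72 h, a bacterial product sensed by Toll-like receptor signaling.

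OAS proteins are antiviral enzymes that bind double-stranded RNA and then join ATP into short adenylate chains. These chains act as a second messenger that leads to the cutting of viral and cellular RNA. Type I interferon induces the OAS genes through its receptor and ISGF3, a complex that holds Stat2 and Irf9 and binds interferon-stimulated response elements in promoters. In the mouse, a single ancestral OAS1 gene has become a row of paralogues. Oas1a and Oas1g encode active synthetases, Oas1b is the gene of the flavivirus resistance locus, and Oas1c belongs to the paralogues that lack the enzyme activity. Oas2 and Oas3 encode larger synthetases with repeated OAS units. Oasl1 and Oasl2 encode OAS-like proteins with ubiquitin-like ends, of which Oasl1 is known to restrain translation of the Irf7 mRNA.

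All 12 OAS genes of the files lie on mouse chromosome 5 of NCBIM37 (mm9), at 2 places separated by 5790 kb. Oasl2 (chr5:115346943-115362243) and Oasl1 (chr5:115373249-115387924), both on the plus strand, are neighbors 11.0 kb apart. Beyond the separation come, in order, Oas2, Oas3, Oas1e, Oas1c, Oas1b, Oas1f, Oas1h, Oas1g, Oas1a and Oas1d. Oas1g (chr5:121326151-121337622) and Oas1a (chr5:121346265-121357536) stand next to each other on the minus strand, 8.64 kb apart. Oas1c (chr5:121250102-121262523, minus strand) and Oas1b (chr5:121262644-121274186, plus strand) start head to head with 120 bases between them. Oas2 (chr5:121180342-121199862) and Oas3 (chr5:121203107-121227670) are on the minus strand. Oas1e (chr5:121236321-121245539) is on the minus strand as well, and Oas1f (chr5:121297376-121307995), Oas1h (chr5:121311430-121323521) and Oas1d (chr5:121364354-121371661) are on the plus strand.

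The promoters of the genes with and without the gap are shown first, since they are what the members do and do not share before any value is given. RefSeq (GRCm38.p6) held a promoter for 8 of the 12 OAS genes. Oas1b, Oas2, Oas1d and Oas1e had no entry. Each line gives the 120 bases before the start of transcription, 5′ to 3′ on the strand of the gene, and each had 1 exact match on chromosome 5 of NCBIM37. Capitals mark matches to an interferon-stimulated response element core, searched as GAAA, any 2 bases and GAAA on either strand, with overlapping matches counted separately.
Oas1a (chr5:121357535-121357654, minus strand): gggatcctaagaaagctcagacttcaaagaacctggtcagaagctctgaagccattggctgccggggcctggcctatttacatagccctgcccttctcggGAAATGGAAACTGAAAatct
Oas1g (chr5:121337623-121337742, minus strand): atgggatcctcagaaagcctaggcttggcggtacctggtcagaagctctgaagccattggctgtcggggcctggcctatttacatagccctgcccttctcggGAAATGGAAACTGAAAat
Oasl2 (chr5:115346823-115346942, plus strand): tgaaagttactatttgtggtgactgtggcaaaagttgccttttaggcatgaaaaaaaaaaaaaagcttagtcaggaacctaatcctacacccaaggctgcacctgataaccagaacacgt
Oasl1 (chr5:115373129-115373248, plus strand): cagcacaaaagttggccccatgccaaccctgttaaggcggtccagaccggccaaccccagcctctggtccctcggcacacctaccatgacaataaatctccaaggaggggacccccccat
Oas3 (chr5:121227669-121227788, minus strand): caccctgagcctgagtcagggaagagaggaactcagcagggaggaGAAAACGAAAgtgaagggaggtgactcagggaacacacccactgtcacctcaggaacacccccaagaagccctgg
Oas1c (chr5:121262524-121262643, minus strand): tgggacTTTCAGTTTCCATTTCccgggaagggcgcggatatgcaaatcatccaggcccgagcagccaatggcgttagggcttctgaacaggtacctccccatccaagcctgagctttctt

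Oas1a and Oas1g each carried 2 overlapping matches, which end 4 and 2 bases before the start of transcription, and their 120 bases were identical at 108 aligned positions (90.0%). Over the 250 bases before the start, the core was present in 4 of the 6 members with a promoter, namely Oas1a, Oas1g, Oas1c and Oas3, and was not found in Oasl2 or Oasl1. Across all RefSeq promoters of the same length it was present in 978 of 32851 (2.98%). The 2 matches of Oas1c read on the opposite strand, and its 120 bases fill the whole interval between Oas1c and Oas1b. A gap in control 2 was thus recorded in genes with the core (Oas1a and Oas1g) and in a gene with no match in this window (Oasl2), and genes without the gap likewise included both kinds.

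The deposited value is an RNA-seq score for each gene whose unit is not named. Low scores multiplied by exon length fell near multiples of a step, which would correspond to 17520000 to 19920000 reads per sample. Read numbers given below are inferred from that step, since the files hold scores and no counts. Scores summed over all genes ranged from 604.2 to 637.6 and 19107 to 19589 genes were above 0 in a sample, so that control 2, with 18340000 inferred reads, was not the shallowest library. Nfkbiz scored 0.0241 and 0.0226 in the controls and 0.0127 and 0.0116 in cKO, and was lower in cKO (log2 fold change -0.94, SE 0.0956, limma adjusted p = 0.0282). Control 2 stood apart at H2-Ea-ps, an MHC class II gene annotated as a pseudogene, with a score of 1.15 against 0.00008 in control 1 and 0 in both cKO samples. Whether the genetic background of control 2 matched the strain label was not tested, and a difference in background would enter the gap and every contrast that contains control 2. The 8 B cell markers were above 0 in every sample and summed to 2.58 and 2.88 in the controls and 2.46 to 2.49 in cKO. Among markers of plasmacytoid dendritic cells, a major source of interferon, 4 of the 6 listed genes were above 0. Their sum was 0.0144 and 0.0205 in the controls and 0.0252 to 0.0291 in cKO. It was carried by Pacsin1 (0.0052 in control 1, 0.00971 in control 2, 0.0165 in cKO 1 and 0.0143 in cKO 2), Ccr9 (0.00395 to 0.00749) and Il3ra (0.00404 to 0.0051). Siglech did not exceed 0.00022, and Klk1 and Cox6a2 were 0 in every sample. Myeloid markers summed to 0.171 to 0.178 in the controls and 0.205 to 0.21 in cKO, with 6 to 8 of 9 above 0 and S100a9 at 0 throughout. Itgam (0.135 to 0.158) carried most of this sum. Control 2 was the lowest sample for Lyz2 (0.0112, against 0.0205 in control 1, 0.0485 in cKO 1 and 0.0329 in cKO 2). It was also lowest for Csf1r, Cd68, Cd14, Fcgr1 and S100a8, and not for Itgam or Emr1. T and NK cell markers (7 to 8 of 9 above 0) did not exceed 0.00528 in sum. Erythroid markers (4 to 5 of 6 above 0) summed to 0.0134 in control 1 and to 0.00218 to 0.00263 in the other 3 samples, a sum carried in control 1 by Hbb-b1 (0.00657) and Hbb-b2 (0.00638). The part of these cells in the OAS values was not tested, and in such bulk samples fewer cells of a type and less RNA per cell cannot be told apart.

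Oas1a, the synthetase gene with the highest score of its locus in control 1, showed the widest gap. Its scores were 0.0142 in control 1, 0.00012 in control 2, 0.00814 in cKO 1 and 0.00811 in cKO 2. The 3 other samples lay within a factor of 1.75 of each other, whereas control 2 was 67.6-fold below the lowest of them. The inferred reads were 482 in control 1, 4 in control 2 (95% Poisson interval 1.09 to 10.2), 308 in cKO 1 and 270 in cKO 2, and the ratio of control 1 to control 2 had an exact 95% interval of 48.1 to 456. Intervals of this kind cover counting error only.

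Oas1g, the neighboring active synthetase, followed the same pattern. It scored 0.0087 in control 1, 0.00015 in control 2, 0.00556 in cKO 1 and 0.00522 in cKO 2. Control 2 was 34.8-fold below the lowest of the others. Its score corresponded to 6 inferred reads (5.52 before rounding, interval 2.2 to 13.1) against 183 to 311 in the other samples. Control 1 was again the highest sample and the cKO samples lay together between the controls.

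Oasl2, which lies at the other place on the chromosome, was the remaining member with the gap. Its scores were 0.00595 in control 1, 0.00006 in control 2, 0.0026 in cKO 1 and 0.0029 in cKO 2. It had 3 inferred reads in control 2 (3.44 before rounding, interval 0.619 to 8.77). The ratio of cKO 1 to control 2 was 49.7 with an exact 95% interval of 16.7 to 244. At the length of the longest transcript, the control 2 scores of Oas1g and Oasl2 did not fall on a whole read. Their read numbers and intervals are therefore approximate. In all 3 members with the gap the controls enclosed both cKO samples, so that the groups overlapped completely.

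**Figure D1:**
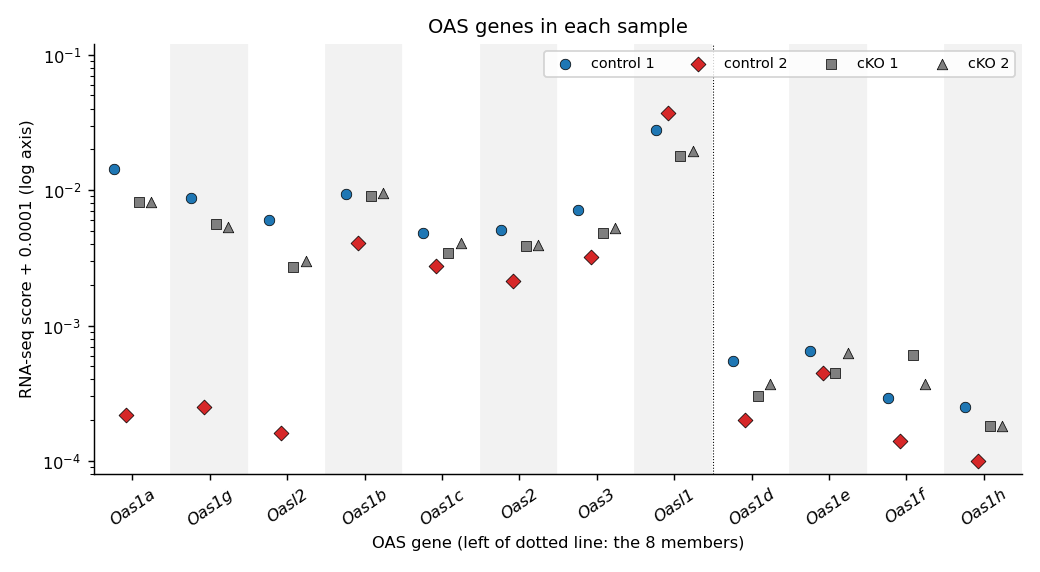
RNA-seq scores of the 12 OAS genes in the 4 samples (y axis, score plus 0.0001, log axis); each symbol is 1 sample, and the dotted line separates the 8 members from the other 4 paralogues. Control 2 sits at 0.00015 or less for Oas1a, Oas1g and Oasl2, and between 0.00204 and 0.0372 for the other 5 members.

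The remaining members of the Oas1 to Oas3 locus were lower in control 2 as well but were not near 0. Oas1b scored 0.0093 in control 1, 0.00399 in control 2, 0.00889 in cKO 1 and 0.0095 in cKO 2. Control 2 was 2.23-fold below the lowest of the other 3, which differed little among themselves. Oas3 scored 0.00698, 0.00309, 0.00473 and 0.00516 in the same order of samples, with control 2 lowest by 1.53-fold. Oas2 scored 0.00497, 0.00204, 0.00378 and 0.00385, with control 2 lowest by 1.85-fold. Oas1c scored 0.0047, 0.00264, 0.00335 and 0.00399, and here control 2 was only 1.27-fold below cKO 1. The ratio of the inferred reads of cKO 1 (153) to those of control 2 (111) for Oas1c had an exact 95% interval of 0.987 to 1.64, so that the difference from cKO 1 was not detectable at this depth. For control 1 the ratio to control 2 was 1.78 (interval 1.4 to 2.27), and for cKO 2 it was 1.51 (interval 1.18 to 1.94). Both of these intervals lie above 1 and cover counting error only.

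Oasl1, which shares its locus with Oasl2, went the other way. Its score of 0.0372 in control 2 was the highest of the 4 samples, above 0.0275 in control 1, 0.0177 in cKO 1 and 0.0194 in cKO 2. Next to Oasl2, a gene with 3 inferred reads in control 2, Oasl1 had 1488. Control 2 was therefore the lowest sample for 7 of the 8 members and the highest for Oasl1. Across the 9727 genes that reached 0.005 in at least 1 sample (the filter behind all counts over genes), control 2 was lowest for 1543 (15.9%). The members were selected for low values in this sample, and nothing is read from the 2 figures together. By plain ratios of scores, just inside and just outside a 4-fold gap stood Oas1g with 34.8-fold and Oas1b with 2.23-fold, and no member lay between them. With 0.0001 added to each score, the member nearest above 4-fold was Oasl2, with a log2 gap of 4.08 against 4.41 for Oas1g.

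The other 4 paralogues of the row were barely expressed in any sample, so a gap of that size could not be seen in them. Oas1d, an ovary-expressed paralogue, scored 0.00045 in control 1, 0.0001 in control 2, 0.0002 in cKO 1 and 0.00027 in cKO 2. For Oas1e the scores were 0.00055, 0.00035, 0.00035 and 0.00053, with control 2 equal to cKO 1. Oas1f was at 0.00019, 0.00004, 0.00051 and 0.00027, or 1 inferred read in control 2 against 5, 15 and 7 in the others. Oas1h was at 0.00015, 0, 0.00008 and 0.00008, or 5, 3 and 2 inferred reads outside control 2 and 0 in control 2, which allows up to 3.69 reads by the 95% Poisson interval. Of these 4, Oas1d, Oas1f and Oas1h were lowest in control 2, by differences that their small read numbers do not resolve for every sample. For Oas1d the ratio of control 1 to control 2 was 4.11 with an exact 95% interval of 1.33 to 16.9, and that of cKO 1 to control 2 was 1.84 with an interval of 0.493 to 8.36.

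Because the step in the scores behaves as a length-normalized value would, levels may be set side by side between genes on the score scale. Oasl1 had the highest score of the family in every sample. In cKO, the mean scores then ran from Oas1b (0.0092 ± 0.000431, SD, n = 2) through Oas1a (0.00813 ± 2.12e-05), Oas1g (0.00539 ± 0.00024), Oas3 (0.00495 ± 0.000304), Oas2 (0.00382 ± 4.95e-05) and Oas1c (0.00367 ± 0.000453) to Oasl2 (0.00275 ± 0.000212). Oas2 and Oas1c overlapped in their cKO scores, whereas each other neighboring pair in this order was separate in these 2 samples. The places of Oas1a and Oas1g depend on how reads that match both genes were counted, which is not given in the sources used here. In control 1 the order was Oasl1, Oas1a, Oas1b, Oas1g, Oas3, Oasl2, Oas2 and Oas1c. In control 2, Oas1a stood below Oas1b, Oas3, Oas1c and Oas2, next to Oas1d at 0.0001.

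The extent of this pattern over the genome was then described by a gap measure, the log2 of the lowest score of the other 3 samples minus the log2 of the score of control 2, each with 0.0001 added. A gap above 4-fold was found for 7 of 9727 genes (0.0720%). By the same measure, 5 genes were that far below all others in control 1, 1 gene in cKO 1 and 0 genes in cKO 2, a count that involves no test. Oas1a had the largest value, 5.22, followed by Oas1g with 4.41. The gene 9530053H05Rik came next with 4.19, at scores of 0.0136, 0.00065, 0.018 and 0.0195 in control 1, control 2, cKO 1 and cKO 2. Oasl2 followed with 4.08, and then Ccdc21 with 3.66, at 0.672, 0.0529, 0.693 and 0.758. The measure reads only control 2 against the lowest other sample, and the 5 genes differed in the rest of their pattern. The mean of the cKO samples minus control 1 was -0.80, -0.68 and -1.09 on the log2 scale for Oas1a, Oas1g and Oasl2, and 0.46 and 0.11 for 9530053H05Rik and Ccdc21. The other 2 genes above 4-fold, named after their values were seen, were LOC672025 (3.13) and AI506816 (2.52). On the side of larger values, 7 genes were more than 4-fold above all other samples in control 2, H2-Ea-ps by far the most, against 4 in control 1 and 0 in either cKO sample. Whether these genes and the OAS gap are related was not tested.

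Neighboring genes were examined to see how far the gap reached along the chromosome. Within 500 kb of the members, 71 other genes are annotated, of which 48 were in the files and 32 passed the filter. A gap above 4-fold in control 2 was found for 0 of the 32, and a gap above 2-fold also for 0. The largest value among them was 0.39, at Plbd2. Their log2 differences between control 2 and control 1 ranged from -0.54 to 0.69 with a median of 0.09, against -6.02 for Oas1a, -5.14 for Oas1g and -5.24 for Oasl2. The 32 genes past the filter around the Oas1 row and the Oasl pair thus differed between the controls by no more than 0.69 on the log2 scale. Genes below the filter are not covered by this range. Oasl2 lay beside Oasl1, which did not share its gap. The OAS genes on either side of Oas1g and Oas1a, Oas1h and Oas1d, were too low in every sample to show whether they shared it.

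**Figure D2:**
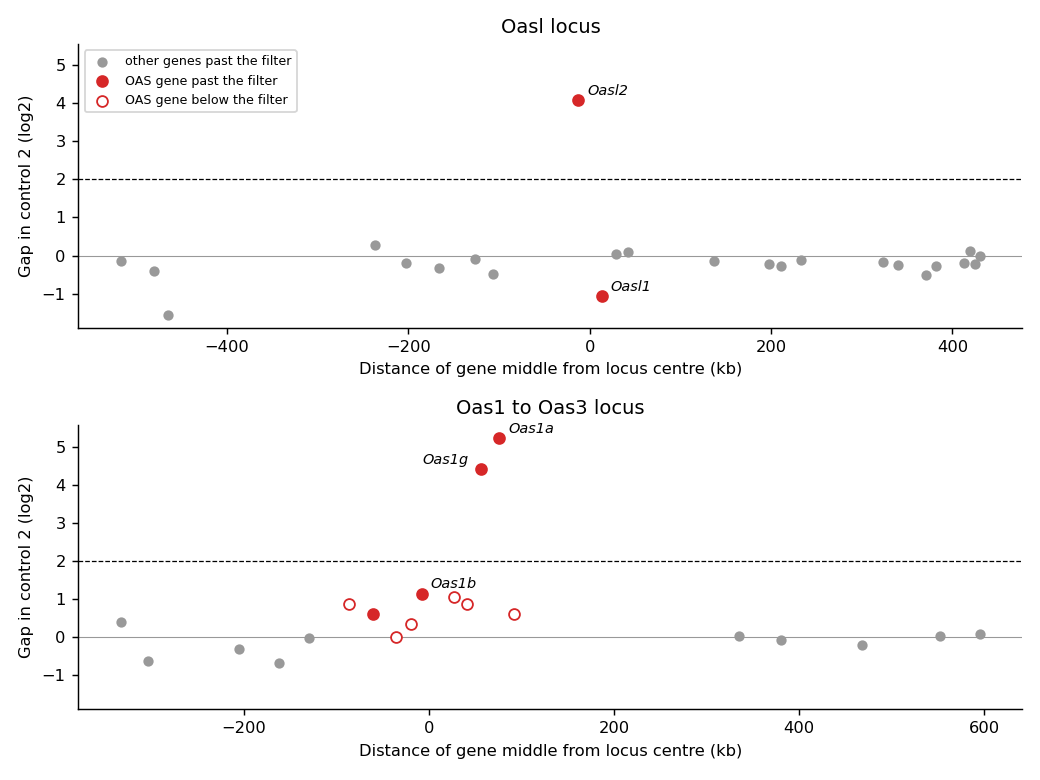
Gap measure in control 2 (y axis, log2; the dashed line is 4-fold) for genes within 500 kb of the OAS genes, by the distance of the middle of each gene from the middle of its locus (x axis, kb). Grey points are the other genes past the filter, filled red points OAS genes past it and open red points OAS genes below it; Oasl2 (4.08), Oas1g (4.41) and Oas1a (5.22) stand above the line, and no other gene shown does.

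The paralogues were compared in sequence, since reads of 38 bases from near-identical copies cannot always be assigned to one gene. Coding sequences of Oas1a and Oas1g, both of 1116 bases, were identical at 96.4% of aligned bases, the highest value of any pair of OAS genes. The next for Oas1a was Oas1b, at 81.5%. Among all stretches of 38 bases in Oas1a transcripts, 63.9% also occurred in Oas1g, and 60.5% of those of Oas1g occurred in Oas1a. How the authors counted reads that match both genes is not given in the sources used here, so the split of reads between Oas1a and Oas1g is uncertain, and their gaps are not separate measurements. Oasl2 shared 0 of its 3086 stretches with another OAS gene, and its coding identity with Oas1a was 60.8%. Oas1b, without the gap, shared 2.08% of its stretches with other OAS genes, and Oasl1, Oas2 and Oas3 shared 0.

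The first 76 coding bases show the near-identity of Oas1a and Oas1g, in transcripts of the GENCODE annotation of NCBIM37. Capitals mark bases that differ from Oas1a at the same position from the start codon, in an alignment without gaps.
Oas1a: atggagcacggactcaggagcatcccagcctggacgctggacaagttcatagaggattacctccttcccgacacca
Oas1g: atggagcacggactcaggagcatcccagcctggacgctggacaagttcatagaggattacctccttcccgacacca
Oas1b: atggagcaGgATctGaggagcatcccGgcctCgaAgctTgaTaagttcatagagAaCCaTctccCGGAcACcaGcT
Oas1c: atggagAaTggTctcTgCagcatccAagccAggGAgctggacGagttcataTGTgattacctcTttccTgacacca
Oas1g differed from Oas1a at 0 of these positions, Oas1c at 15 and Oas1b at 21. Without gaps, bases gained or lost shift every later position, as at the end of the Oas1b line. The counts for Oas1c and Oas1b therefore do not rank their closeness to Oas1a. Over whole coding sequences aligned with gaps, identity to Oas1a was 81.5% for Oas1b and 76.1% for Oas1c. A read from this stretch matches Oas1a and Oas1g equally.

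**Figure D3:**
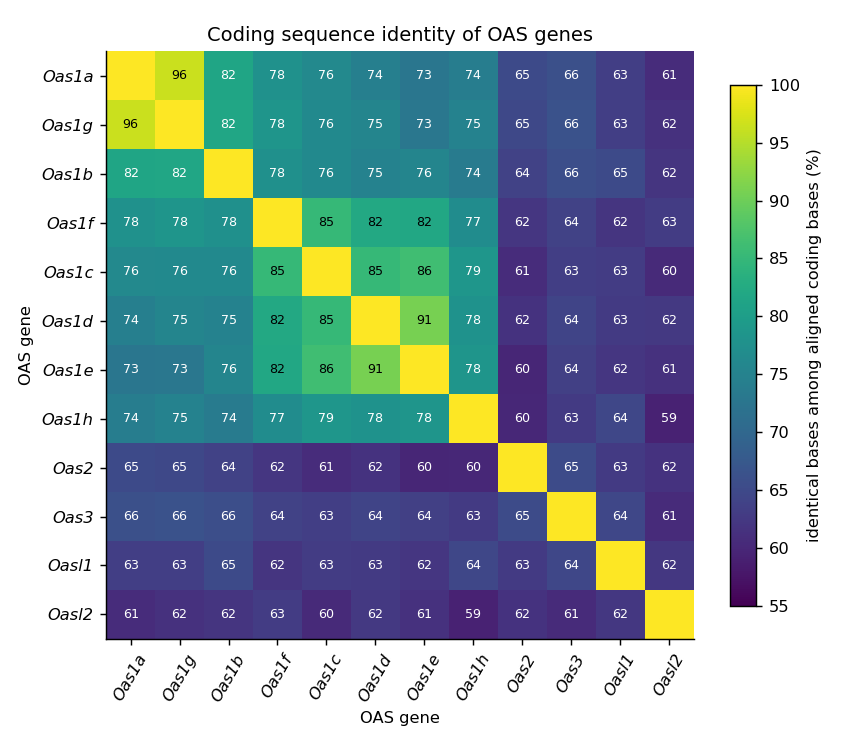
Identity of the coding sequences of the 12 OAS genes, as the percentage of aligned coding bases that are identical (color and number in each cell, diagonal 100). Oas1a and Oas1g form the closest pair (96.4%) and Oasl2 is no more than 63.0% identical to any other gene.

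Between genotypes, no OAS gene passed the test. Of the 8 members, 6 passed the filter, and Oas2 and Oas1c stayed just below it with largest scores of 0.00497 and 0.0047. With all 4 samples, limma called 0 of the 6 members, against 122 of 9727 genes (1.25%) lower and 79 (0.812%) higher in cKO at an adjusted p under 0.05. At an unadjusted p under 0.05, 1 member (Oasl1) was lower and 0 were higher, where 11.5% of all genes were lower and 10.8% higher. With 2 samples against 2, the smallest two-sided p of an exact permutation test is 0.333. The contrast contains control 2, on whose values the family was chosen, and is given for that reason with and without it.

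Oas1a had a log2 fold change (cKO minus control) of 2.21, with an SE of 1.78 and a limma adjusted p of 0.488. Without control 2 it was -0.80 (SE 0.139, limma adjusted p = 0.0217). Set against control 2 alone it was 5.22, a value given without a p because the members were chosen by their level in that sample. A single control sample thus set the sign of the difference. Oasl2 behaved alike, with 1.53 (SE 1.63, limma adjusted p = 0.598) in all samples, -1.09 without control 2 and 4.15 without control 1. Its value without control 2 is given without a p, because Oasl2 reached 0.005 only in control 1, the lone control of that fit. For Oas1g the values were 1.89 (SE 1.53, limma adjusted p = 0.492) in all samples, -0.68 without control 2 and 4.46 without control 1. With a pseudocount of 0.001 in place of 0.0001, the log2 fold changes in all samples were 1.14 for Oas1a, 0.94 for Oas1g and 0.47 for Oasl2. The fits without 1 control assume that the lone control would vary as the cKO samples do.

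Oas1b, the member with the smaller gap, had a log2 fold change of 0.58 (SE 0.371, limma adjusted p = 0.395). Without control 2 it was -0.02 (SE 0.145, limma adjusted p = 0.951), and without control 1 it was 1.18, so that its 2 cKO scores lay nearer to control 1 than to control 2. Oas3 was at 0.08 (SE 0.376, limma adjusted p = 0.911), at -0.49 without control 2 (limma adjusted p = 0.144) and at 0.66 without control 1. When no filter was applied, Oas1c had a log2 fold change of 0.05 (SE 0.321) and Oas2 of 0.25 (SE 0.456), with limma adjusted p of 0.954 and 0.801.

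Of the 6 members tested, Oasl1 was the only one whose groups did not overlap and the only one with the same sign in each fit that left out 1 control. Both of its cKO scores were below both control scores, which held for 30.1% of all genes past the filter. Its log2 fold change was -0.78 (SE 0.156, limma adjusted p = 0.076), -0.57 without control 2 (SE 0.121, limma adjusted p = 0.0406) and -1.002 without control 1. When replicate numbers entered the fit as a block, the limma adjusted p of this change was 0.0151, whereas it was 0.345 without cKO 1, 0.158 without cKO 2, 0.245 with no filter, 0.115 with no variance trend and 0.0661 with the crossed block. For the other members past the filter, the log2 fold changes without control 2 were -0.80 (Oas1a), -0.68 (Oas1g), -1.09 (Oasl2), -0.02 (Oas1b) and -0.49 (Oas3). Oasl2 passed the filter only through control 1, the lone control of that fit.

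**Figure D4:**
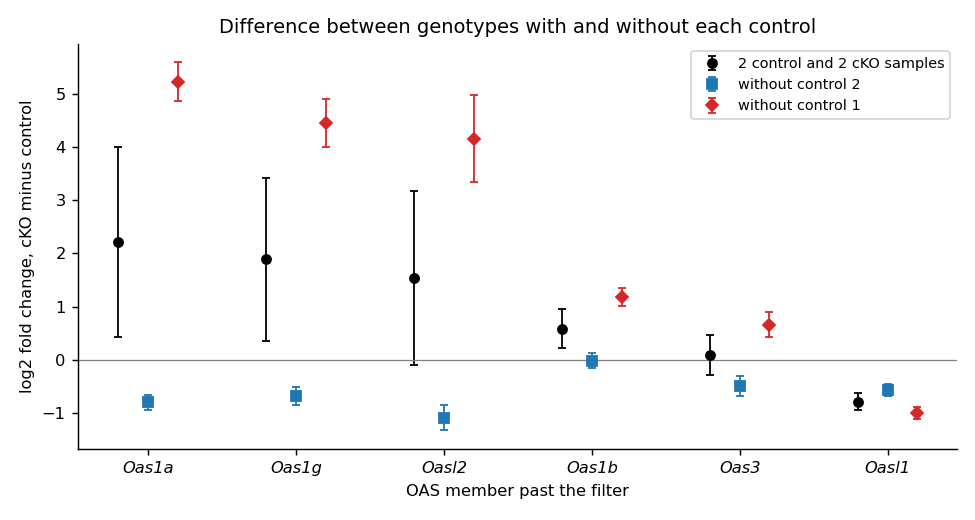
Log2 fold change of cKO minus control (y axis) for the 6 OAS members past the filter, fitted with all samples (black), without control 2 (blue) and without control 1 (red); bars are standard errors from limma. Oas1a, Oas1g and Oasl2 change sign with the control that is left out, and Oasl1 stays between -0.57 and -1.002.

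The rest of the interferon system was read from 3 lists to place the OAS genes beside other genes induced by the same pathway. For the sensors of double-stranded RNA and partners of the OAS enzymes (11 of 12 past the filter), limma called 0 genes lower and 0 higher, with a median log2 fold change of -0.13. For the interferon receptor and ISGF3 genes (11 of 13) it also called 0 in either direction, with a median of 0.05, and for other interferon-stimulated genes (18 of 21) 0 in either direction, with a median of -0.15. The median over all genes was -0.01. At an unadjusted p under 0.05, 1 gene of the 3 lists was lower, Isg20, which encodes an RNA exonuclease, and 0 were higher, where 11.5% of all genes were lower and 10.8% higher. Ifnb1, the gene of interferon β, was listed at 0 in all 4 samples.

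The ISGF3 genes Stat2 and Irf9 showed no gap above 2-fold in control 2. Stat2 scored 0.0367 in control 1, 0.0326 in control 2, 0.0387 in cKO 1 and 0.0371 in cKO 2. For Irf9 the scores were 0.0372, 0.0281, 0.0341 and 0.0319 in the same order. Irf7, the interferon regulatory factor whose translation Oasl1 restrains, scored 0.0201, 0.0124, 0.0152 and 0.0157. Control 2 was the lowest sample for each of these 3 genes, with a gap measure of 0.17 to 0.30, and their log2 fold changes between genotypes were between -0.03 and 0.13 with limma adjusted p of 0.448 to 0.952.

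A gap above 4-fold or above 2-fold in control 2 was found for 0 of the 40 listed interferon genes past the filter. Control 2 was nonetheless below control 1 for 32 of the 40 (80.0%), with a median log2 difference of -0.44, where it was below for 4683 of the 9727 genes past the filter (48.1%) and the median was 0.01. The difference was largest among the other interferon-stimulated genes, 17 of 18 of which were lower in control 2, with a median of -0.68 and a lowest value of -1.98 at Ifit3, an antiviral RNA-binding protein gene (0.00864 in control 1, 0.00212 in control 2, 0.00382 in cKO 1 and 0.0048 in cKO 2). The cKO samples were also below control 1 in these 18 genes, with a median log2 difference of -0.52 between their mean and control 1, and control 2 differed from the cKO mean by a median of -0.12. Control 2 was also the lowest of the 4 samples for 10 of these 18 genes and for 21 of the 40. Over all genes past the filter this held for 15.9%. By the medians above, control 1 was the sample further from the others in interferon-stimulated genes. In Oas1a, Oas1g and Oasl2, by contrast, control 2 differed from the cKO mean by -5.22, -4.46 and -4.15 on the log2 scale, and in Oas1b by -1.18. Without control 2, limma called 11 of the 40 genes lower in cKO (4.02% of all genes were called lower in that fit) and 0 higher. The largest of these changes was at Usp18, which encodes an inhibitor of interferon receptor signaling. It scored 0.0112 in control 1, 0.00405 in control 2, 0.0043 in cKO 1 and 0.00369 in cKO 2. Its log2 fold change was -1.47 without control 2, and -0.75 with all samples (SE 0.453, limma adjusted p = 0.377). Usp18 and Ifit3, both among these 11 genes, reached 0.005 only in control 1, the lone control of the fit without control 2. They passed the filter only through the sample in which they were high, so their calls in that fit are not independent of the filter.

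**Figure D5:**
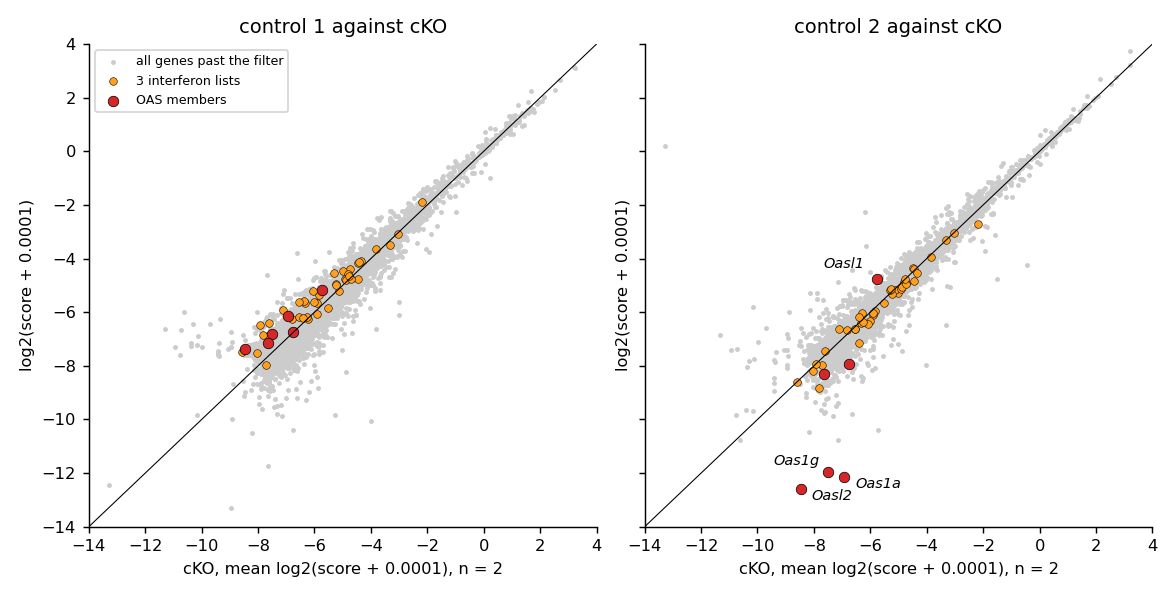
Log2(score + 0.0001) of control 1 (left) and control 2 (right) against the mean of the 2 cKO samples, for all 9727 genes past the filter (grey), the 40 genes of the 3 interferon lists (orange) and the 6 OAS members past the filter (red). The line marks equal values; in control 2, Oas1a, Oas1g and Oasl2 lie below it by log2 differences of -5.22, -4.46 and -4.15, away from the interferon genes.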

How the data were processed

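TopHat 2.0.0 was used by the authors for mapping to mm9, with reads of Phred quality 25 or more retained and ribosomal and transfer RNA filtered out by BED Tools, and 1 score was deposited for every gene in each sample. The step from reads to the deposited score is not given in the sources used here, and reads that match several genes may have been shared between paralogues. The OAS members and the gene lists were chosen with earlier results of these data known. Genes that reached 0.005 in at least 1 sample were kept (9727 genes), and log2(score + 0.0001) was fitted with limma 3.58.1 in R 4.3.3 (cKO minus control, variance trend, Benjamini-Hochberg adjustment over all genes kept, threshold 0.05). Fold changes on this scale understate changes of low scores. Sequences, positions and neighbors came from NCBIM37 with GENCODE and from RefSeq promoters (GRCm38.p6), and were handled with Python 3.11.15, scipy 1.17.1 and Biopython 1.88. Reads were inferred from the step in low scores, of which 75.4 to 81.9% per sample fell within 0.2 of a whole read, and read intervals cover counting error only.

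Named genes are the members and other Oas1 paralogues, Nfkbiz, called genes of the interferon lists with Stat2, Irf9 and Irf7, the 5 genes with the largest gap in control 2, neighbors within 500 kb with a gap above 4-fold, and H2-Ea-ps. Other genes that this rule covers are not reported here. Isg20, Ifnb1, Ifit3, Usp18, Plbd2, LOC672025, AI506816 and marker genes were named after their values were seen. The samples carry the numbers 1 and 2 in both groups, without a stated pairing, and the main fit had no block.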

Additional observations from a re-analysis of the deposited data

How the results depend on the processing

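With all samples, 122 genes were lower and 79 higher in cKO. With a filter above 0.05, 1933 genes were tested, of which 88 were called lower and 35 higher. With no filter, 21582 were tested, of which 1538 lower and 1665 higher had an unadjusted limma p under 0.05. Counts moved by more than 1.5-fold in the first (higher only), in the second (0 lower, 0 higher) and with no variance trend (22 and 11). They ranged from 0 to 391 lower and 0 to 439 higher when 1 sample was left out, with the largest counts without control 2 and 0 in both directions without cKO 1 or without cKO 2. Called members ranged from 0 to 3 lower and from 0 to 4 higher, and called genes of the interferon lists from 0 to 11 lower and from 0 to 1 higher, when 1 sample was left out. The counts without control 1 set cKO against the sample on which the members were chosen. Those without control 2 set cKO against control 1, the only sample in which Oasl2, Usp18 and Ifit3 reached 0.005. Nfkbiz had a log2 fold change of -0.94 with a limma adjusted p of 0.203 without a filter and 0.0509 without the variance trend, and ranged from -1.01 to -0.87 when 1 sample was left out, with a limma adjusted p of 0.13 without cKO 1 and 0.0885 without cKO 2.

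A fit in which replicate numbers formed a block called 177 genes higher and 1 OAS member (Oasl1) lower. Same-numbered samples did not vary together (Pearson correlation of deviations -0.145, Spearman -0.291). With 2 samples per group, these correlations cannot decide whether same-numbered samples shared a culture or a batch, and no pairing is stated. The crossed pairing, added after the data were seen, called 230 genes lower, 212 higher and 1 gene of the interferon lists lower.

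Directions changed for small differences and with the control left out. With 1 sample left out, the log2 fold changes ranged from -0.80 to 5.22 (Oas1a), -0.68 to 4.46 (Oas1g), -1.09 to 4.15 (Oasl2), -0.017 to 1.18 (Oas1b), -0.49 to 0.66 (Oas3), -0.17 to 0.23 (Irf9) and -0.38 to 0.32 (Irf7), with the lowest value of each without control 2 and the highest without control 1. Irf9 was at -0.019 without cKO 1. Genes more than 4-fold below all others in control 2 numbered 7, of which 3 were members. They numbered 26 at 2-fold (4 members, with Oas1b), 17 with no filter (3 members), and 3 with a filter above 0.05, which removes all 8 members and leaves 0. With a pseudocount of 0.001 Oasl2 was no longer above 4-fold, Oas1a and Oas1g remained, and log2 fold changes between genotypes were 1.14 (Oas1a), 0.94 (Oas1g) and 0.47 (Oasl2). The cause of these changes was not tested, other than the number of genes or samples each alternative keeps. Depth limits the paralogues with few reads, whose scores in control 2 rest on 0 to 11 inferred reads.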
